A study of Mus musculus with 36 samples.

Results

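Lysosomes hold the hydrolases that take apart lipids, sugars and proteins, inside a membrane lined with transporters and heavily glycosylated proteins. The 34 genes described here encode such hydrolases, their activators and membrane proteins, and include Tfeb and Tfe3, which encode transcription factors of lysosomal genes. They were given as a list of gene names, and each was represented by probes carrying that name with a detection p under 0.05 on at least 4 arrays. Of the 34 genes 33 were measured, among 14421 genes tested. By name on the array 31 of them passed, and Tfeb and Tfe3 passed under their older names Tcfeb and Tcfe3. Aga, encoding the enzyme that cleaves asparagine-linked sugars, was detected on 3 arrays and was not tested.

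The series comprised 36 Illumina bead arrays of RNA from macrophages grown out of C57BL/6 mouse bone marrow with M-CSF, from mice aged 2 to 5 months. Donors were wild type (wt) or lacked both LXRα and LXRβ (double knockout, dko), the nuclear receptors that sense oxysterols. Some cultures were given cholesterol crystals over 3 h and washed, and 10 mM cyclodextrin (CD), a ring of sugars that carries cholesterol, was then added to some for 4 h. The 4 wt groups were untreated, crystals, CD, and crystals followed by CD, with 5 arrays each, and the 4 dko groups matched them with 4 arrays each. Replicate numbers 1 to 5 were wt and 6 to 9 dko, and nothing states whether a number marks an animal or a culture. A p-value here reflects only how far these arrays scatter, and that scatter may be technical.

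Lysosomal enzymes are made in the endoplasmic reticulum, tagged in the Golgi apparatus and delivered to acidic vesicles, where each cuts a particular bond, and the loss of one can lead to a storage disease. Macrophages are rich in lysosomes because they digest what they engulf. When nutrient signalling at the lysosome drops, TFEB and TFE3 enter the nucleus and bind promoters of lysosomal genes at an element with the core CACGTG, which is why both are described beside their potential targets.

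All 10 macrophage markers, Csf1r and Adgre1 among them, were detected on every array of each group, and their summed linear intensity ran from 52257 to 73729 on wt arrays and from 54790 to 72987 on dko arrays. The probes for the deleted genes did not mark the genotype: Nr1h3 (LXRα) read 9.19 to 11.29 on wt and 9.59 to 10.91 on dko arrays, and Nr1h2 (LXRβ) 8.03 to 9.69 and 8.89 to 9.97, in log2 units. The sources used here do not place these probes against the deleted parts, so they do not check the label dko. The arrays lay on 6 slides. Slides 1 and 5 held wt replicates 1 to 3 alone, and the other 4 held wt replicates 4 and 5 with all dko arrays. Xist was high on wt replicates 1 to 3 (10.88 to 11.40) and low on 4 and 5 (4.23 to 4.41), and each dko group held 2 arrays of either kind. Each dko replicate number held arrays of both kinds, so arrays that share a dko number cannot be taken as 1 animal. In wt, where Xist followed the slide set, slide set and Xist signal cannot be told apart. In a bulk sample, fewer cells of a type and less RNA per cell cannot be told apart either.

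The promoters below are those of the genes with the core element that rose in crystal-loaded wt cells without CD, and that of Ctns. Lamp1 is shown because its window held 4 copies of the core element, the most among the listed genes. Neu1 and Psap also rose, and their windows, not shown, lack the element. Galns rose and had no window. The windows run from 250 bases before to 50 after the annotated start, are from RefSeq (GRCm38.p6), read 5′ to 3′, and carry each CACGTG in capitals. Ctns, which had the largest rise of the list with crystals in wt cells without CD, has no copy in the window shown, that of its first annotated start of 2.
Mcoln1 promoter, chr8:3500269-3500568, plus strand: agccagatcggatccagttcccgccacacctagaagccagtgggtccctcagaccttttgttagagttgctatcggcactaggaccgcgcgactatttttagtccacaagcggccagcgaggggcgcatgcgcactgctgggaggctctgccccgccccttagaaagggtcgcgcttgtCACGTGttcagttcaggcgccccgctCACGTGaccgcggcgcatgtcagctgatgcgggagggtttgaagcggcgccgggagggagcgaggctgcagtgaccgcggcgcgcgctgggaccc
Gla promoter, chrX:134600956-134601255, minus strand: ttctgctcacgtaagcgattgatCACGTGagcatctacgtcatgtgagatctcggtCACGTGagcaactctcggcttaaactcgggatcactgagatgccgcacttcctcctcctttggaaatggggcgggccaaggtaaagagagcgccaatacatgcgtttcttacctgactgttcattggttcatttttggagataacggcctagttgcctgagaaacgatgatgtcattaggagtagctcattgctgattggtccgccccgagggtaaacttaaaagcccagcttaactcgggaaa
Gaa promoter, chr11:119267713-119268012, plus strand: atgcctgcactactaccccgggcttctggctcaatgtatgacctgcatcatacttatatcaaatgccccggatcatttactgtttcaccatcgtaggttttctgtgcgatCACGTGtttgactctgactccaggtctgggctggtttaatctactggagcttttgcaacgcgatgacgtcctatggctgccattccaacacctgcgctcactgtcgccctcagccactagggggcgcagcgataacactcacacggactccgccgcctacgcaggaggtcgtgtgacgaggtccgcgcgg
Naglu promoter, chr11:101069844-101070143, plus strand: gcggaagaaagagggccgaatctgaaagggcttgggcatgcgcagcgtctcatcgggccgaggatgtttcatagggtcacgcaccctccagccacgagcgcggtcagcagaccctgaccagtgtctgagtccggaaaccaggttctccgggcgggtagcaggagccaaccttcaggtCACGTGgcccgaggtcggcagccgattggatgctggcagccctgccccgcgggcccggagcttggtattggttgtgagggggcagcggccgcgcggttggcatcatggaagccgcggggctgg
Lamp1 promoter, chr8:13158911-13159210, plus strand: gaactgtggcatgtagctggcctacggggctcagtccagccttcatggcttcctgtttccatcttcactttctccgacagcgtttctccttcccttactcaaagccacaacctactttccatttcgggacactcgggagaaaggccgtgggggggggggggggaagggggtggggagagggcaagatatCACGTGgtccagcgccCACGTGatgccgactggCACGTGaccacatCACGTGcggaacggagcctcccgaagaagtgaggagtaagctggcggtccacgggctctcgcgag
Ctns promoter, chr11:73198970-73199269, minus strand: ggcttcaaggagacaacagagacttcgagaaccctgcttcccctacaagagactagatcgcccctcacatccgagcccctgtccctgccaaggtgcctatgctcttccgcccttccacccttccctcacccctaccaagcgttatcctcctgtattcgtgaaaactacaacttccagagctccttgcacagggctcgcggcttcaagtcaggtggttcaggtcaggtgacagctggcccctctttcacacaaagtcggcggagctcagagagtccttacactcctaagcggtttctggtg

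The table of promoters held windows for 30 of the measured genes. CACGTG, which reads the same on both strands, lay in 9 of these (30%): Arsa, Cln3, Gaa, Gla, Glb1, Lamp1, Mcoln1, Naglu and Sgsh. It lay in 7.15% of all 32851 windows of that length and in at least 1 window of 8.09% of the 27025 genes. The longer palindrome TCACGTGA, which contains CACGTG, lay in the windows of Cln3, Gla and Mcoln1 and in 0.974% of all windows. Of the 9 genes with the core element 4 rose with crystals in wt cells without CD and none fell, with a median change of 0.12. Of the 21 without it 3 rose and 2 fell, with a median of -0.06. Of all genes tested 6.89% rose and 7.11% fell, and the share among all genes with the element was not taken. Whether the element goes with the rise was not tested. Asah1, Galns and Hgsnat had no window in the table. A match describes the letters of these windows and is not a binding site shown here.

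The first comparison asked what cholesterol crystals alone did to lysosomal transcripts in wt macrophages. With crystals 8 of the 33 genes rose and 2 fell, so that 10 were called (30.3%), against 14% of all genes tested. Upward calls made up 6.89% and downward calls 7.11% of all genes. The genes that rose were Ctns, Gla, Naglu, Mcoln1, Gaa, Galns, Neu1 and Psap, by 0.22 to 0.87 on the log2 scale, and the genes that fell were Ids and Fuca1. The median change of the 33 was -0.01, as was the median of all genes. Calls were made at an adjusted p under 0.05 with limma's moderated test over all genes tested, with levels given as normalized log2 intensity. Shares of all genes called, here and below, are at that adjusted threshold. Member counts given below at an unadjusted p are not comparable with them. Among the 10 macrophage markers, Cd14 differed by -1.14 (SE 0.28, adjusted p = 0.00470) and Itgam by -0.87 (SE 0.22, adjusted p = 0.00492), and the summed marker intensity was 63138 to 73190 on untreated and 52257 to 66382 on loaded wt arrays. The part of this in the members' changes was not tested.

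**Figure D1:**
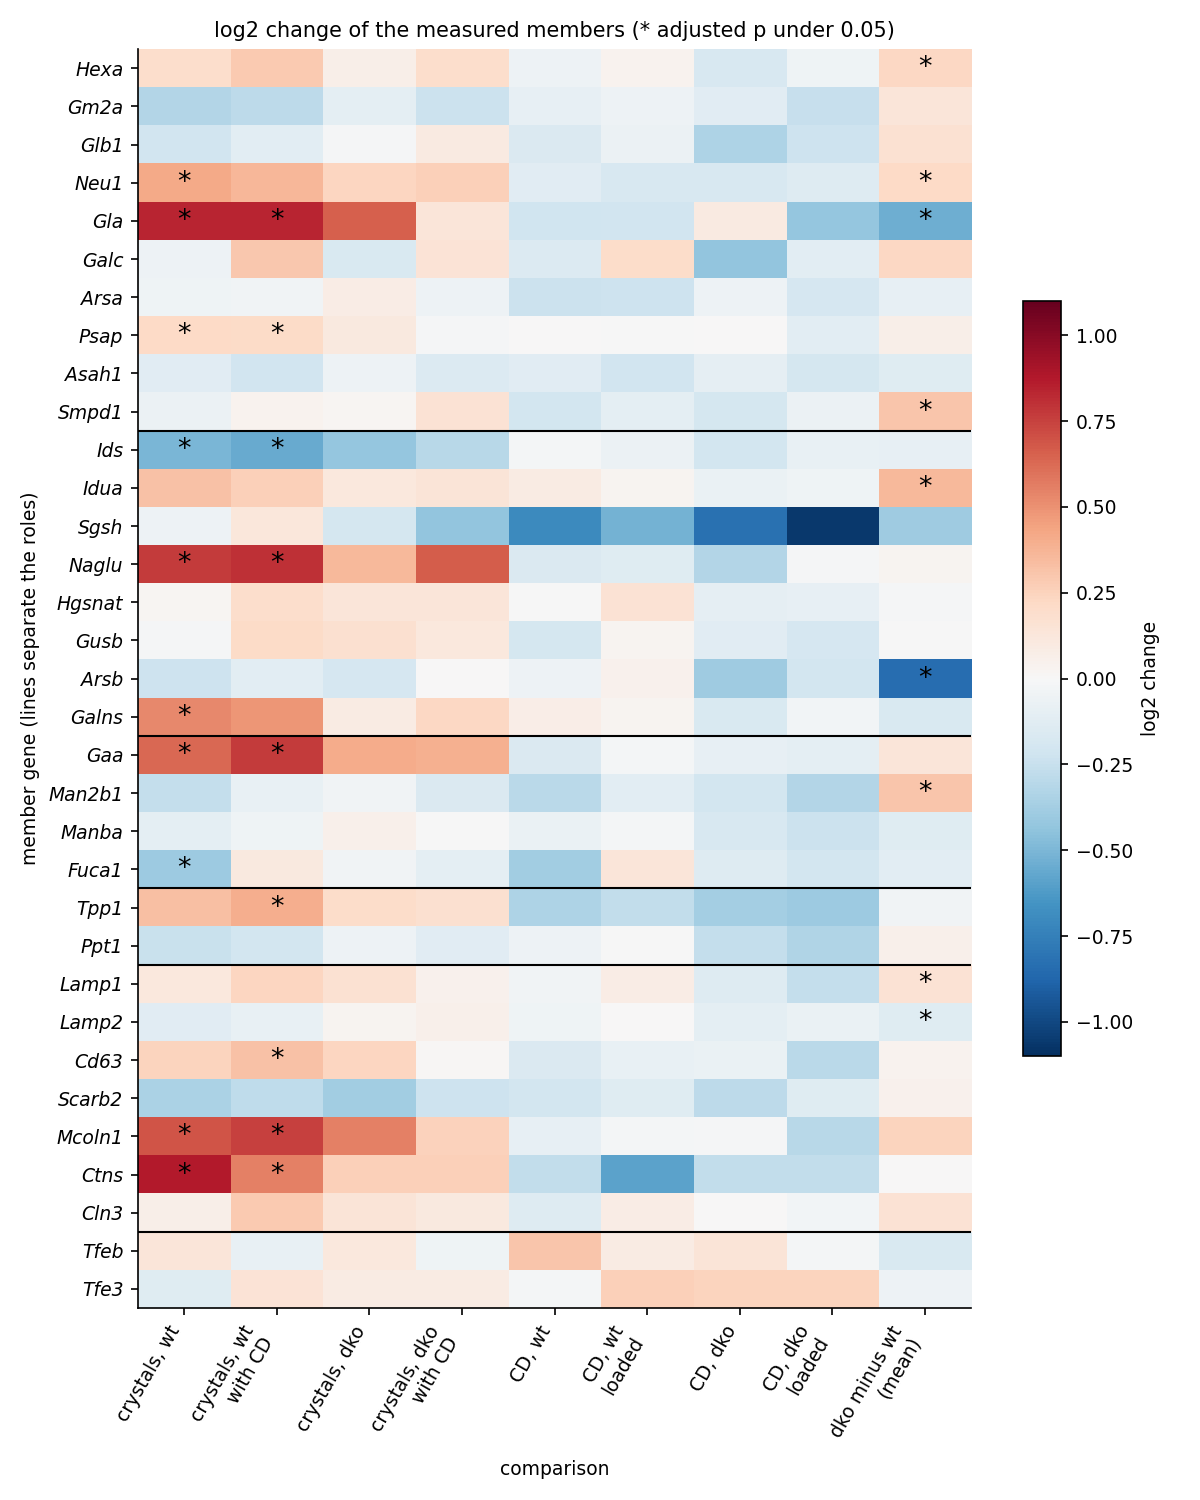
Log2 change (colour, scale at the right) of the 33 measured genes (rows, grouped by role) in 9 comparisons (columns), with an asterisk at an adjusted p under 0.05. Asterisks stand in the wt crystal columns (10 and 9 genes) and in the genotype column (9 genes), and there is none in the dko crystal columns or the CD columns.

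Among the membrane proteins, Ctns, which encodes the exporter that clears cystine from lysosomes, read 9.29, 8.96, 9.39, 9.40 and 9.21 on the untreated wt arrays (replicates 1 to 5, in that order here and below) and 10.64, 10.29, 10.23, 9.79 and 9.65 after crystals. Every loaded array lay above every untreated one, and loaded replicates 1 to 3 lay above 4 and 5. The rise was 0.87 or 1.83-fold (SE 0.17, adjusted p = 0.000371). Mcoln1 encodes TRPML1, the channel that lets calcium out of the lysosome, and read 6.76, 7.0, 6.87, 7.52 and 7.39 on untreated and 7.66, 7.32, 8.14, 7.88 and 7.98 on loaded arrays. The groups overlapped only in that loaded replicate 2 lay below untreated replicates 4 and 5. Mcoln1 rose by 0.69 (SE 0.17, adjusted p = 0.00578). The other 5 membrane protein genes did not pass the test. Lamp1, a major glycoprotein of the lysosomal wall, differed by 0.12, its relative Lamp2 by -0.13, the tetraspanin Cd63 by 0.25, Cln3 by 0.06 and Scarb2, which carries glucocerebrosidase to the lysosome, by -0.35.

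Of the 10 genes for sphingolipid and ganglioside breakdown, 3 rose. Gla, encoding α-galactosidase A, which trims galactose from glycolipids, read 5.07, 5.16, 5.11, 5.31 and 5.26 on untreated and 5.67, 5.95, 6.05, 6.35 and 6.06 on crystal-loaded arrays. The groups did not overlap, at a low level close to background, and the rise was 0.84 (SE 0.22, adjusted p = 0.00738). Neu1, the lysosomal sialidase, read 10.62, 10.73, 10.75, 10.94 and 10.75 without and 11.21, 11.11, 11.01, 11.18 and 11.37 with crystals. All loaded arrays again lay above all untreated ones, a rise of 0.42 (SE 0.12, adjusted p = 0.0173). Psap encodes the precursor of the saposins, which present lipids to the hydrolases, and read 14.24, 14.30, 14.33, 14.45 and 14.26 on untreated and 14.55, 14.47, 14.47, 14.57 and 14.62 on loaded arrays. Its rise was small, 0.22 or 1.16-fold (SE 0.07, adjusted p = 0.0229), with no overlap, and a second Psap probe rose by 0.44 (SE 0.10, adjusted p = 0.00208). The other 7 genes of this role lay between -0.32 (Gm2a, the GM2 activator) and 0.19 (Hexa, a hexosaminidase subunit) and did not pass the test. They include Glb1, the β-galactosidase, at -0.21, the acid ceramidase Asah1 at -0.13, Smpd1, the acid sphingomyelinase, at -0.06, Galc, the galactosylceramidase, at -0.06 and Arsa, which desulfates sulfatide, at -0.05.

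Of the 8 genes for glycosaminoglycan breakdown, 2 rose and 1 fell. Naglu, which removes N-acetylglucosamine from heparan sulfate, read 9.40, 8.56, 9.04, 9.19 and 9.32 on untreated and 10.02, 10.20, 9.90, 9.47 and 9.76 on loaded arrays. The lowest loaded array, replicate 4, still lay above the highest untreated one, and the rise was 0.77 (SE 0.24, adjusted p = 0.0261). Galns, a sulfatase of keratan sulfate, rose by 0.53 (SE 0.17, adjusted p = 0.0344), with groups that overlapped, and its second probe rose by 0.64 (SE 0.20, adjusted p = 0.0332). Ids, the iduronate sulfatase, moved the other way: 10.28, 10.27, 10.47, 10.43 and 10.45 untreated and 9.65, 9.76, 9.69, 10.14 and 10.13 loaded. No loaded array reached an untreated one, and Ids fell by 0.50 (SE 0.13, adjusted p = 0.00936), which is 1.42-fold lower. Its 2 dimmer probes, detected on 18 and 6 arrays, differed by -0.13 (SE 0.16, adjusted p = 0.729) and -0.23 (SE 0.14, adjusted p = 0.334). Other enzymes of heparan sulfate breakdown did not pass the test: Sgsh differed by -0.06, Hgsnat, its acetyltransferase, by 0.02 and Idua by 0.32. Nor did the β-glucuronidase Gusb, at -0.01, or Arsb, a sulfatase of dermatan sulfate, at -0.23.

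Gaa, the acid α-glucosidase that digests glycogen, read 9.10, 9.22, 9.20, 8.87 and 8.68 on untreated and 9.78, 9.87, 10.04, 9.30 and 9.24 on crystal-loaded wt arrays. The groups were separated by a narrow margin, and replicates 1 to 3 lay above 4 and 5 in both. Gaa rose by 0.63 or 1.55-fold (SE 0.18, adjusted p = 0.0176). Fuca1, the lysosomal fucosidase, fell by 0.40 (SE 0.14, adjusted p = 0.0413), from 5 arrays with detection to 1 of 5, a change near background between overlapping groups. A probe under an older clone name of the same gene was detected on 35 arrays, against 15 for the probe used. It differed by -0.52 (SE 0.27, adjusted p = 0.254) and was not called. Man2b1, an α-mannosidase of glycoproteins, differed by -0.26 (SE 0.12, adjusted p = 0.181) on its brighter probe, and its second probe fell by 0.37 (adjusted p = 0.0401). Manba, a β-mannosidase, differed by -0.11 (SE 0.10, adjusted p = 0.593). Tpp1, a tripeptidase, differed by 0.33 (SE 0.12, adjusted p = 0.0728), and Ppt1, which removes palmitate from proteins, by -0.25 (SE 0.14, adjusted p = 0.282).

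**Figure D2:**
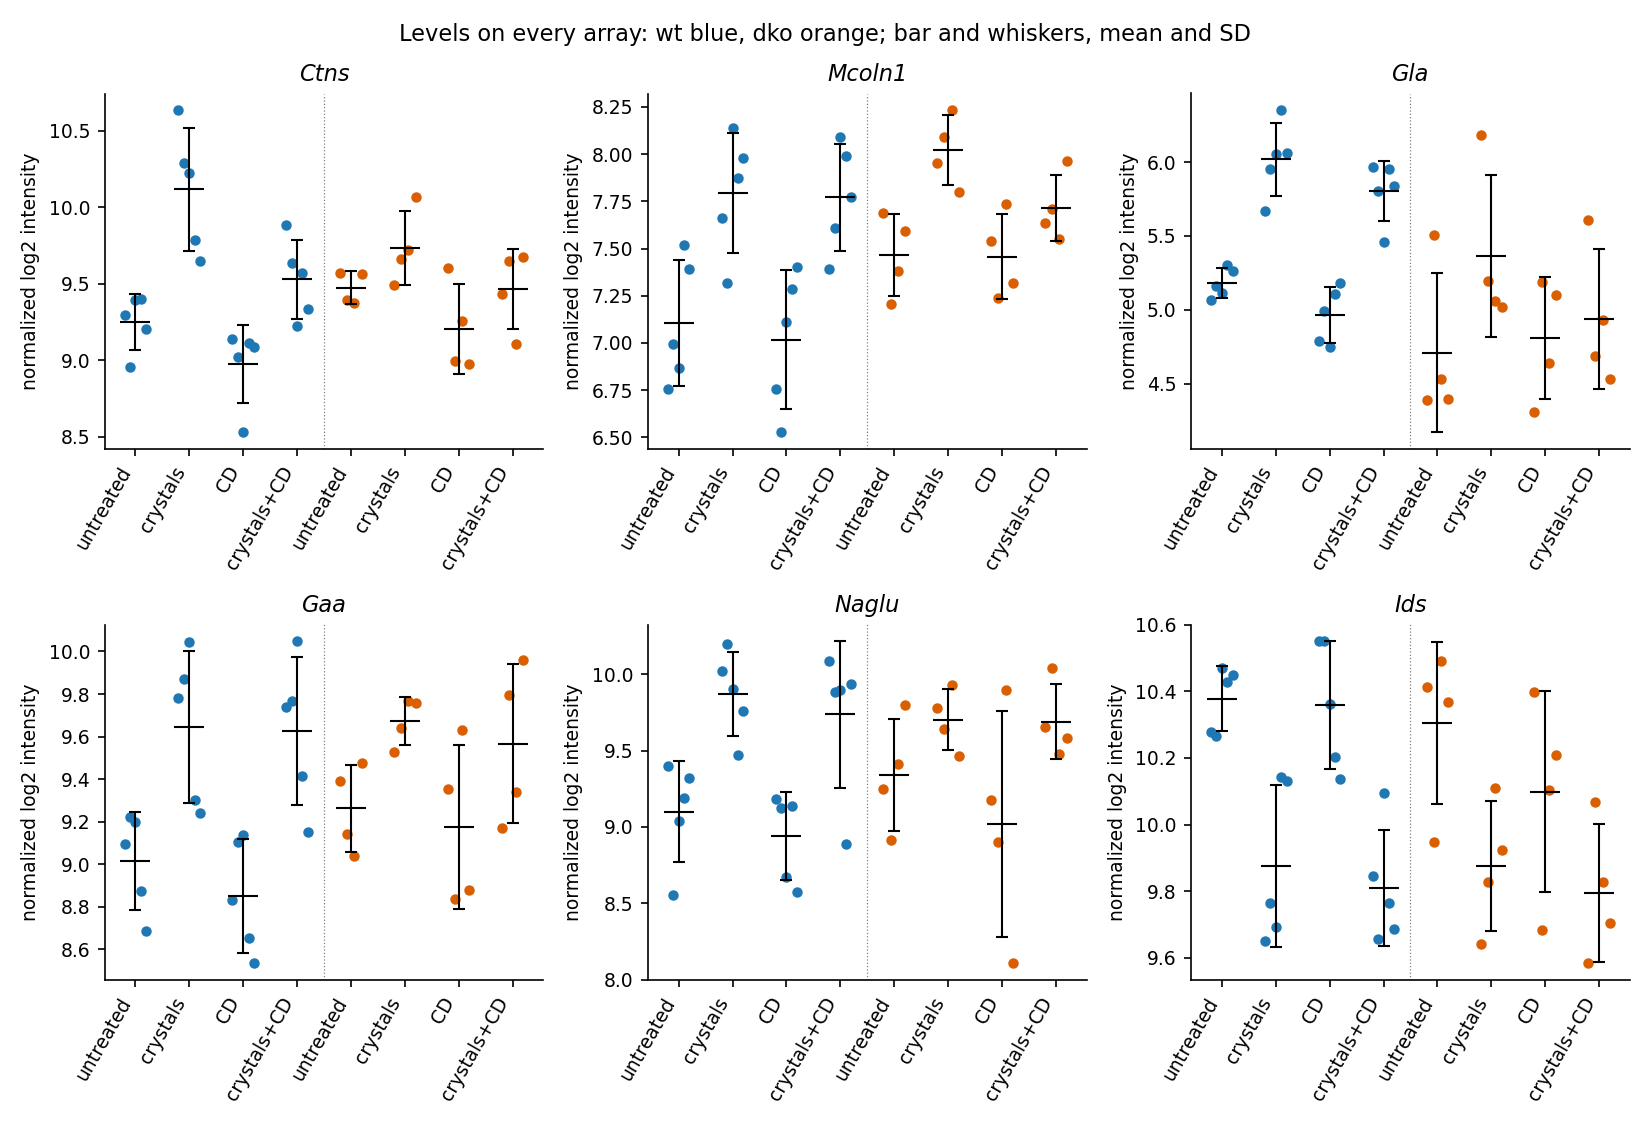
Normalized log2 intensity (vertical axis, scaled to each gene) of 6 genes on every array of the 8 groups, wt in blue and dko in orange, with bars at the mean and whiskers of 1 SD. In wt cells the crystal groups of Ctns, Gla, Gaa and Naglu lie above untreated cells without overlap, Mcoln1 overlaps, and Ids lies below.

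The same changes were taken within slides. Both groups lay together on slides 1, 2 and 5, where Ctns differed by 0.96, 0.58 and 1.46, Mcoln1 by 0.97, 0.48 and 0.73, Gla by 0.94, 1.09 and 0.53 and Gaa by 0.86, 0.62 and 0.57. On the same slides Naglu differed by 0.65, 0.15 and 1.22, Neu1 by 0.44, 0.43 and 0.47 and Psap by 0.23, 0.31 and 0.23, while Ids differed by -0.55, -0.31 and -0.72 and Fuca1 by -0.43, -0.26 and -0.67. These 9 genes kept their direction on each slide. Of these 2 wt groups, slide 1 held 2 loaded arrays and 1 untreated, slide 2 held 1 of each, and slide 5 held 1 loaded and 2 untreated. All were among the arrays that gave the calls, so the shared direction is not a separate check. Galns differed by 0.52, -0.21 and 0.67, so its direction turned on slide 2. In the slides of wt alone 10 members were called, with 16.8% of all genes, and in the slides with both genotypes, which hold 2 wt arrays a group, none was, with 0.534% of all genes. There Ctns differed by 0.42 (SE 0.21, adjusted p = 0.739) against 1.17 (SE 0.21, adjusted p = 0.00229), while Gla differed by 0.92 (SE 0.40, adjusted p = 0.565) and Neu1 by 0.43 (SE 0.22, adjusted p = 0.720). Leaving out replicate 1, 2 or 3 from all groups left 3, 5 and 3 members called, with 8.47%, 9.41% and 7.93% of all genes. With the slide as a block, 10 members were called higher and 2 lower, with 13.8% of all genes. Crystals went with the slide among replicates 1 to 3, since slide 1 held 5 loaded arrays and 1 unloaded. The part of the slide in these changes was not tested beyond these values.

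**Figure D3:**
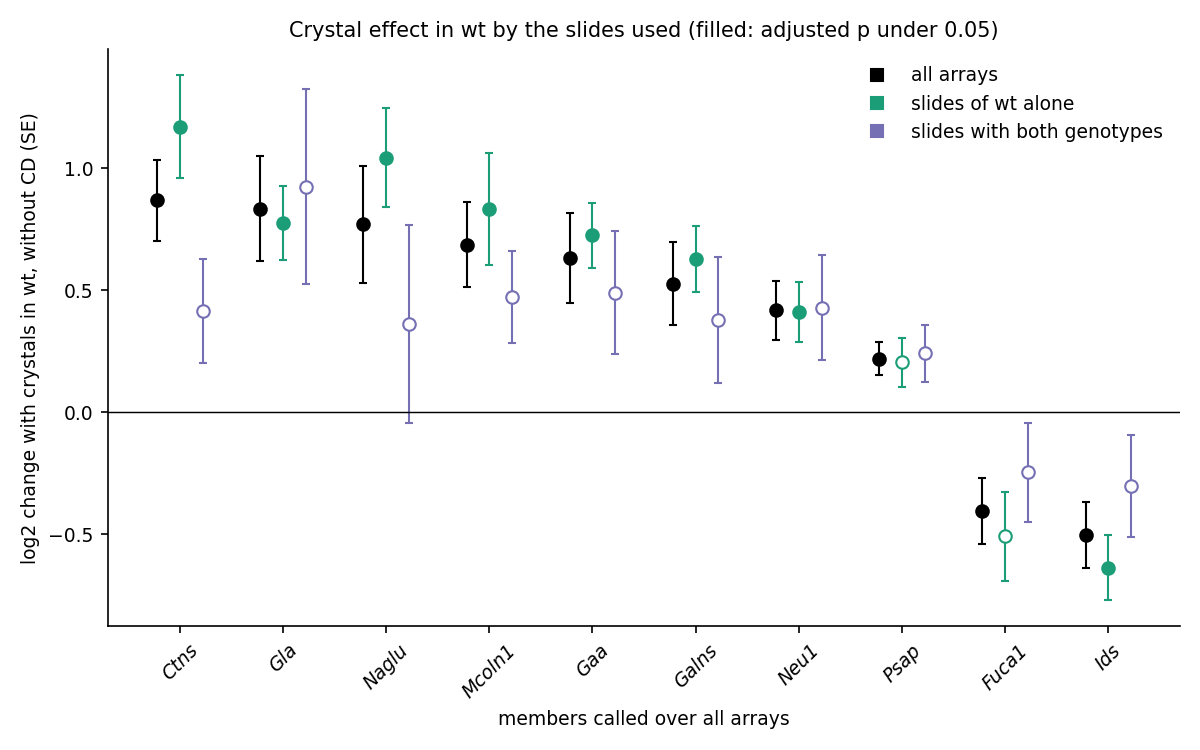
Log2 change with crystals in wt cells without CD (vertical axis, bars 1 SE) of the 10 called genes over all arrays (black), slides of wt alone (green) and slides with both genotypes (purple), filled where the adjusted p is under 0.05. All 10 keep their sign in each set, and none is filled in the slides with both genotypes. Both slide sets are parts of the arrays that gave the calls.

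In the presence of CD, 8 of the 33 genes rose with crystals in wt cells and 1 fell, 27.3% of the list against 7.59% of all genes (4.03% higher and 3.56% lower). The list's median was 0.19 and that of all genes -0.01. The 4 groups behind the 2 crystal comparisons in wt have no array in common but share replicate numbers 1 to 5. Same-numbered wt arrays deviated together (mean correlation 0.48). Slide 1 held 2 arrays with crystals and 3 with crystals and CD, beside 1 untreated. Slide 5 held 2 untreated arrays and 3 with CD, beside 1 with crystals. The 2 comparisons are therefore not independent of each other. Of the 10 genes called without CD 7 were also called with it (70%), in the same direction, as were 45.2% of all genes called without CD. Taken as a share of the calls with CD these were 77.8% of the members and 83.3% of all genes. Called in both were Ctns, Mcoln1, Gla, Psap, Naglu, Gaa and Ids. Neu1 differed by 0.36 (SE 0.12, adjusted p = 0.0636), Galns by 0.48 (SE 0.17, adjusted p = 0.0852) and Fuca1 by 0.11 (SE 0.14, adjusted p = 0.773). The Fuca1 probe under an older clone name differed by -0.35 (SE 0.27, adjusted p = 0.584).

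Mcoln1 read 6.76, 6.53, 7.11, 7.29 and 7.40 with CD alone and 7.39, 7.61, 8.09, 7.99 and 7.77 with crystals and CD, groups that met at their edge, and rose by 0.75 (SE 0.17, adjusted p = 0.00420). For Gaa the values were 8.83, 9.10, 9.14, 8.65 and 8.53 and 9.74, 9.77, 10.05, 9.41 and 9.15, and the rise was 0.77 (SE 0.18, adjusted p = 0.00605). The Gaa groups touched without overlap, again with replicates 4 and 5 lowest. Ids read 10.55, 10.55, 10.36, 10.20 and 10.14 with CD and 9.84, 9.66, 10.10, 9.76 and 9.69 with both agents, and fell by 0.55 (SE 0.13, adjusted p = 0.00740). Gla went from 4.79, 5.00, 4.75, 5.11 and 5.18 to 5.97, 5.81, 5.46, 5.95 and 5.83, a rise of 0.84 (SE 0.22, adjusted p = 0.0118). Neither gene's groups overlapped.

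Cd63, a tetraspanin of late endosomes and lysosomes, read 13.06, 12.92, 12.82, 13.11 and 13.19 with CD and 13.32, 13.38, 13.20, 13.34 and 13.48 with crystals and CD, and rose by 0.33 (SE 0.09, adjusted p = 0.0186). Naglu read 9.18, 9.12, 8.67, 9.14 and 8.58 and 10.09, 9.88, 9.90, 8.89 and 9.94, a rise of 0.80 (SE 0.24, adjusted p = 0.0326). Its replicate 4 with both agents fell inside the CD range, whereas the Cd63 groups stayed apart. Ctns read 9.14, 9.02, 8.53, 9.12 and 9.09 and 9.89, 9.64, 9.23, 9.57 and 9.34, and rose by 0.55 (SE 0.17, adjusted p = 0.0332). Psap, at 14.30, 14.24, 14.26, 14.45 and 14.35 and 14.47, 14.55, 14.53, 14.57 and 14.53, rose by 0.21, next to the threshold (SE 0.07, adjusted p = 0.04997). Both were separated between groups, and Tpp1 rose by 0.40 (SE 0.12, adjusted p = 0.0433). Slide 6 alone held both groups, with 1 array of each, and there Ctns differed by 0.48, Gaa by 0.88, Gla by 0.77, Mcoln1 by 0.58 and Naglu by 0.31. On that slide Ids differed by -0.37, Psap by 0.21, Cd63 by 0.15 and Tpp1 by 0.54. With replicate 1, 2 or 3 left out 1, 2 and 5 members were called, with 4.26%, 4.4% and 4.39% of all genes, and with the slide as a block 2, with 3.06%.

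In dko macrophages no member was called after crystals, either without CD (4 of 33 at an unadjusted p under 0.05 by limma) or with it (1 of 33). Of all genes 0.416% and 0.472% were called in these comparisons, with 4 arrays a group. Without CD, Mcoln1 read 7.69, 7.21, 7.38 and 7.59 on untreated dko arrays (replicates 6 to 9) and 7.95, 8.09, 8.23 and 7.80 on loaded ones. These did not overlap, and the difference was 0.55 (SE 0.19, adjusted p = 0.297), called on the slides with both genotypes at 0.55 (SE 0.13, adjusted p = 0.0399). Gaa read 9.39, 9.14, 9.04 and 9.48 and 9.53, 9.64, 9.77 and 9.76, likewise apart, a difference of 0.41 (SE 0.21, adjusted p = 0.640). Gla read 4.39, 5.51, 4.53 and 4.40 and 6.18, 5.20, 5.06 and 5.02, with 1 untreated array detected and groups that overlapped through replicate 7, a difference of 0.65 (SE 0.24, adjusted p = 0.355). Ctns differed by 0.26 (SE 0.19, adjusted p = 0.863), Naglu by 0.36 (SE 0.27, adjusted p = 0.882) and Ids by -0.43 (SE 0.15, adjusted p = 0.299).

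The difference between genotypes in the crystal effect was tested as an interaction. No member passed it (1 of 33 at an unadjusted p under 0.05, Ctns), and 0.0416% of all genes did. For Ctns the dko effect minus the wt effect was -0.61 (SE 0.25, adjusted p = 0.873, 95% interval -1.11 to -0.10). On the slides with both genotypes, which hold all dko arrays, it was -0.16 (SE 0.26, adjusted p = 1.0). The corresponding difference was -0.13 for Mcoln1 (95% interval -0.66 to 0.40), -0.18 for Gla (95% interval -0.84 to 0.48), -0.22 for Gaa (95% interval -0.79 to 0.34), -0.41 for Naglu (95% interval -1.14 to 0.32) and 0.07 for Ids (95% interval -0.34 to 0.48). The intervals of these 5 genes all hold 0, that of Ctns over all arrays does not, and after adjustment the genotypes are shown neither to differ nor to be alike. With CD present, Naglu in dko cells differed with crystals by 0.67 (SE 0.27, adjusted p = 0.627), Gaa by 0.39, Ctns by 0.26, Mcoln1 by 0.26 and Gla by 0.13.

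**Figure D4:**
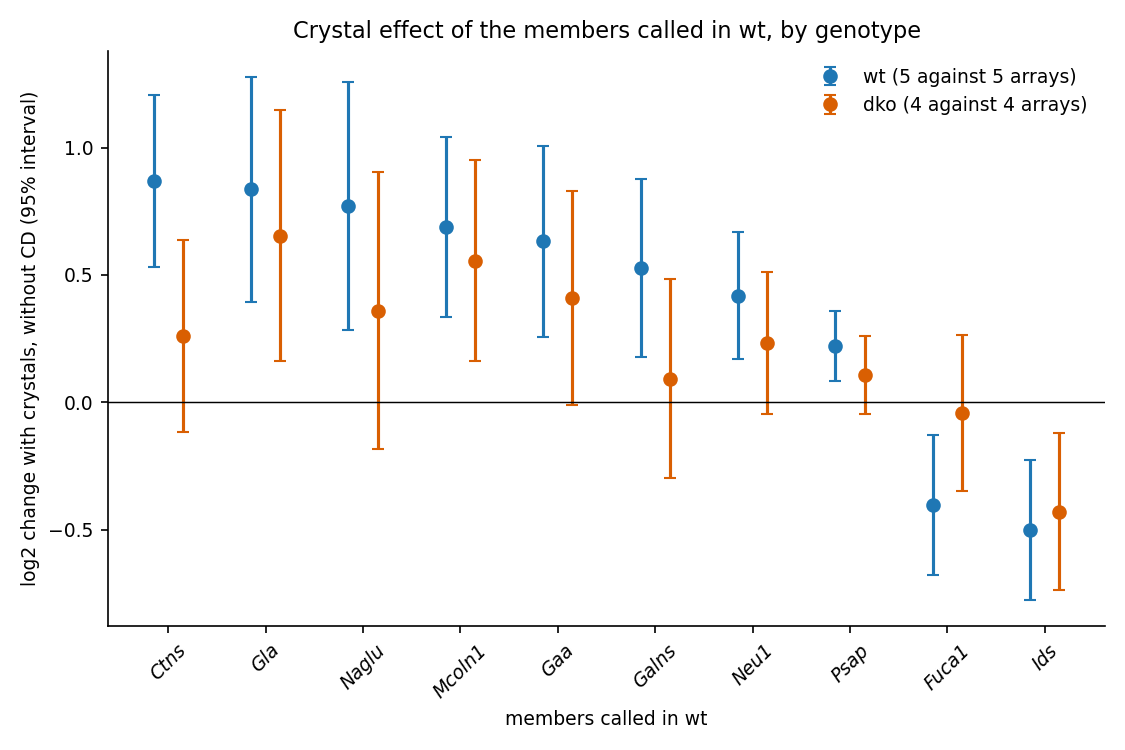
Log2 change with crystals without CD (vertical axis, bars the 95% interval) of the 10 genes called in wt, in wt (blue) and dko cells (orange). The 8 genes that rose in wt have dko values above 0, and Ids and Fuca1 have values below 0, with intervals that overlap those of wt for each gene.

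CD changed no member past the threshold in any of 4 comparisons. In unloaded cells 4 of 33 in wt and 2 of 33 in dko had an unadjusted p under 0.05 by limma, and in loaded cells 2 and 7 did. Of all genes 0.895% were called in unloaded wt, 1.71% in unloaded dko, none in loaded wt and 1.80% in loaded dko cells. These shares are at an adjusted p under 0.05 and are not comparable with the unadjusted counts. The members' medians were -0.13, -0.14, -0.02 and -0.18 in that order, and those of all genes -0.01, -0.03, -0.01 and -0.02. Above 0 lay 4, 5, 13 and 1 of the 33, counts that were not tested. The median of all genes also lay below 0 in each comparison, so most genes tested lay below 0 as well. How the list compares with that share was not tested. These comparisons share arrays with the crystal comparisons, as starting or end points.

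Sgsh, the sulfamidase of heparan sulfate breakdown, had the largest CD difference of the list in 3 of the 4 comparisons, loaded wt cells excepted. It read 7.27, 6.47, 7.35, 6.43 and 7.06 on untreated and 6.63, 6.42, 6.32, 5.71 and 5.98 on CD-treated wt arrays, a difference of -0.70 (SE 0.28, adjusted p = 0.377). In dko cells it read 6.86, 6.74, 6.69 and 6.75 untreated and 6.68, 5.71, 6.00 and 5.37 with CD, a difference of -0.82 (SE 0.32, adjusted p = 0.229). The wt groups overlapped, and the dko groups were separated only by the margin between 6.69 and 6.68. In loaded dko cells Sgsh went from 6.89, 6.61, 6.66 and 6.10 to 5.58, 6.35, 5.36 and 4.72, with detection on 3 of 4 arrays, a difference of -1.06 (SE 0.32, adjusted p = 0.0765). It was called there with the replicate block (0.0163), with the slide as a block (0.0248) and with Xist as a covariate (0.0330), all adjusted p from limma. In loaded wt cells the difference was -0.52 (SE 0.28, adjusted p = 0.750). Tpp1 lay below its no-CD level in all 4 settings, by -0.34, -0.38, -0.27 and -0.40, and Ctns in loaded wt cells by -0.59 (SE 0.17, adjusted p = 0.224), none of which passed the test. No member was called for a difference of the CD effect between genotypes, unloaded (0 of 33 at an unadjusted p under 0.05, none of all genes called) or loaded (1 of 33, none of all genes). Between loaded and unloaded cells none was called either, in wt (1 of 33 unadjusted, 0.0485% of all genes called) or in dko (0 of 33 unadjusted, none of all genes).

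Genotype was compared over the mean of the 4 treatments, dko minus wt. Each array counted there as independent, though wt arrays with the same replicate number deviated together (mean correlation 0.48). The adjusted p-values of the calls over the 4 treatments may therefore be too small. In that comparison 9 of the 33 genes were called (27.3%), 6 higher and 3 lower in dko, against 19.2% of all genes (10.1% higher and 9.10% lower). In untreated cells alone none was (6 of 33 at an unadjusted p under 0.05 by limma, 0.208% of all genes called). Markers of neutrophils and stromal cells moved with the genotype. Summed T cell markers ran from 117 to 144 on wt and 121 to 141 on dko arrays. Sums of B cell, dendritic cell and erythroid or mast cell markers also overlapped over most of their range. Of 5 measured neutrophil markers 5 were higher in dko (median 0.91), and their summed intensity, over the 6 on the array, ran from 150 to 222 on wt and 197 to 1040 on dko arrays. Of 6 stromal markers 5 were higher (median 1.04), with sums of 505 to 2027 and 1728 to 2642. Of the neutrophil markers, Mpo and Ngp were detected on no wt array, and in dko Ngp was undetected with CD alone. Mpo, detected on 5 arrays, passed the filter only through dko arrays, so its direction was set beforehand. The part of neutrophils and stromal cells in the values below was not tested.

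Arsb, which removes sulfate from dermatan sulfate, read 8.57, 9.27 and 10.53 (lowest, median and highest of 20 wt arrays) and 8.37, 8.66 and 9.02 (16 dko arrays), a difference of -0.84 (SE 0.18, adjusted p = 0.00181). The wt arrays fell into separate sets. Replicates 4 and 5 read 9.99, 10.36 and 10.53, in every treatment, and replicates 1 to 3 read 8.57, 9.10 and 9.44, overlapping the dko arrays. On the slides with both genotypes the difference was -1.62 (SE 0.06, adjusted p = 3.75e-13), and in untreated cells alone -1.42 (SE 0.12, adjusted p = 8.11e-07). On dko arrays, high and low Xist gave Arsb medians of 8.64 and 8.67. A second Arsb probe, detected on 13 arrays, differed by -0.02 (SE 0.07, adjusted p = 0.917) between genotypes.

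Gla read 4.75, 5.38 and 6.35 on wt and 4.31, 4.97 and 6.18 on dko arrays, overlapping ranges, and differed by -0.54 (SE 0.12, adjusted p = 0.00155). Its probe was detected on all wt arrays but on 1, 4, 2 and 3 of 4 dko arrays with no agent, crystals, CD and both, so part of the dko values lie at background and give the size of this difference only roughly. Lamp2, the other glycoprotein of the wall, had -0.14 as its dko-minus-wt value (SE 0.05, adjusted p = 0.0327), and 4 more Lamp2 probes detected on all arrays were lower too, with differences of -0.24 (SE 0.05, adjusted p = 0.00235), -0.25 (SE 0.08, adjusted p = 0.0245), -0.26 (SE 0.08, adjusted p = 0.0230) and -0.41 (SE 0.12, adjusted p = 0.0148). Both genes are X-linked, as are Ids and Tfe3. Among dko arrays Gla had a median of 4.59 where Xist was high and 5.19 where it was low. With Xist high or low as a covariate, all 28 called changes of the list, those of genotype among them, kept direction and call. For genotype that fit called 9 members higher and 4 lower in dko, with 25.7% of all genes. In wt the covariate also stands for the slide set, and its part was not tested beyond these values.

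Man2b1 read 12.59, 13.05 and 13.47 on wt and 13.06, 13.33 and 13.84 on dko arrays, a difference of 0.30 (SE 0.07, adjusted p = 0.00185), and its second probe differed by 0.44 (SE 0.06, adjusted p = 2.78e-05). Smpd1, the acid sphingomyelinase, read 8.73, 8.98 and 9.30 and 8.73, 9.33 and 9.79, a difference of 0.30 (SE 0.09, adjusted p = 0.0134). The ranges of both genes overlapped between genotypes. Idua, which cuts iduronic acid from dermatan and heparan sulfate, read 8.14, 8.59 and 9.39 on wt and 8.54, 9.05 and 9.62 on dko arrays, higher by 0.36 (SE 0.10, adjusted p = 0.0160). Neu1 read 10.46, 10.85 and 11.37 and 10.59, 11.11 and 11.59, higher by 0.22 (SE 0.06, adjusted p = 0.0184). Hexa read 11.75, 12.11 and 12.50 and 11.82, 12.30 and 12.60, higher by 0.22 (SE 0.07, adjusted p = 0.0267). These ranges overlapped as well, and Lamp1 was higher by 0.16 (SE 0.06, adjusted p = 0.0488). On the slides with both genotypes 5 members were called, namely Arsb, Gla, Man2b1, Gaa and Galc, with 3.87% of all genes. Man2b1 differed there by 0.43 (SE 0.07, adjusted p = 0.000857), Gaa by 0.44 (SE 0.11, adjusted p = 0.0265) and Galc by 0.50 (SE 0.10, adjusted p = 0.00312). Smpd1, Idua, Neu1, Hexa, Lamp1 and Lamp2 were not called there, with Lamp1 at 0.02 (SE 0.07, adjusted p = 0.918). Leaving out replicate 1, 2 or 9 left 4 members called each, with 11.6%, 11.4% and 10.1% of all genes.

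The dko arrays were not uniform in these genes. Smpd1 had a mean of 9.60 and 9.01 on dko arrays with high and low Xist, and 9.0 on wt arrays. Idua had 9.28 and 8.73 in that order, and 8.65 in wt. Neu1 had 11.29 and 10.92, and 10.89 in wt. For these 3 genes the dko arrays with low Xist were close to the wt mean, and the genotype value lay mainly in those with high Xist. Within wt the order was the reverse. Smpd1 had 8.95 on replicates 1 to 3 (high Xist) and 9.08 on 4 and 5 (low Xist). Idua had 8.62 and 8.70 there, and Neu1 10.83 and 10.98. On dko arrays with high and low Xist, Hexa had 12.40 and 12.18, Lamp1 13.56 and 13.39 and Lamp2 12.37 and 12.51. Their wt means were 12.07, 13.32 and 12.58. Man2b1 had 13.37 and 13.31, both above its wt mean of 13.04. What else the dko arrays of either kind differ in was not tested.

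The genotype directions depended on the scaling. Scaling by array medians moved the median of all genes to -0.12, and the unnormalized values to -0.21. Relative to that median Smpd1 stayed higher in dko (0.19 and 0.17), as did Idua (0.25 and 0.21), Hexa (0.16 and 0.15), Neu1 (0.13 and 0.12), Lamp1 (0.12 and 0.11) and Man2b1 (0.26 and 0.25). Gla (-0.50 and -0.16), Arsb (-0.95 and -0.83) and Lamp2 (-0.22 and -0.22) stayed lower. Scaling by array medians called 0 members higher and 4 lower, with 13.4% of all genes called, and the unnormalized values called 0 higher and 11 lower, with 59.3% of all genes.

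**Figure D5:**
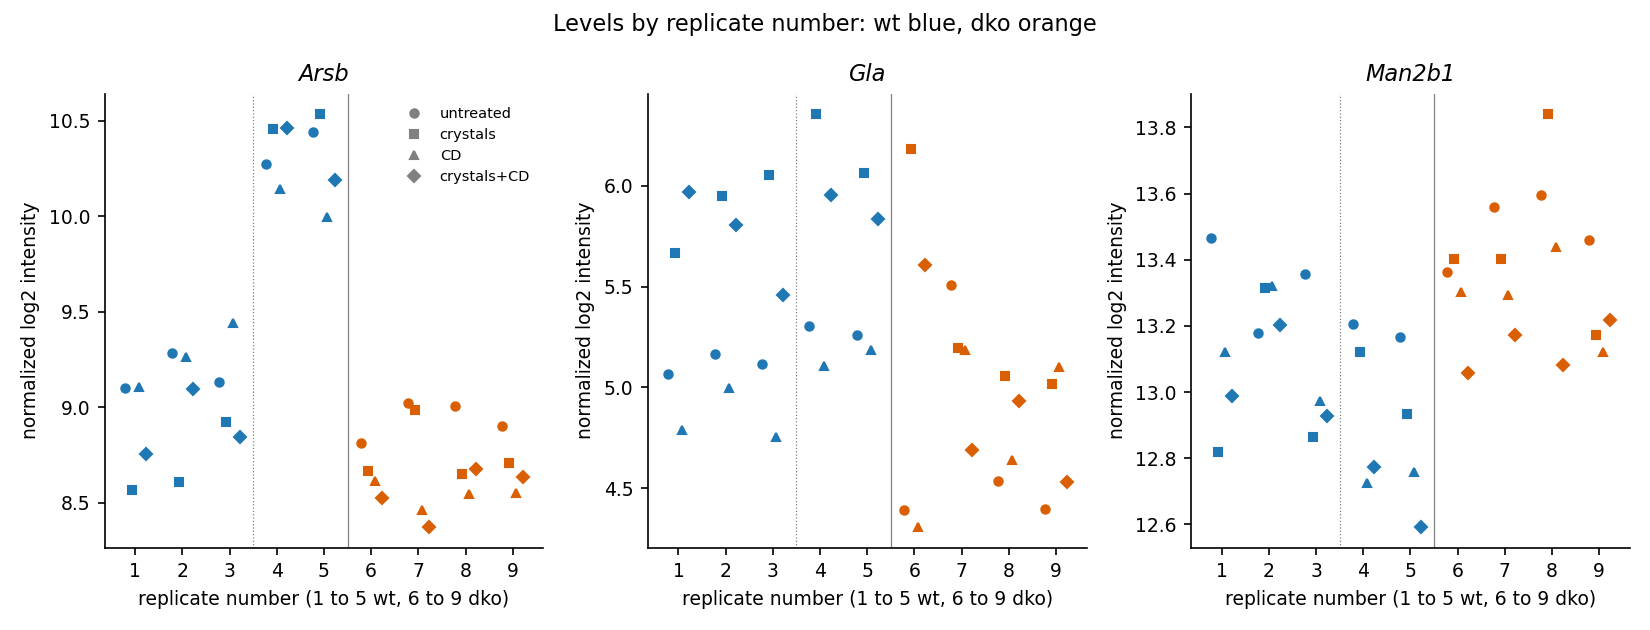
Normalized log2 intensity (vertical axis, scaled to each gene) of Arsb, Gla and Man2b1 by replicate number (wt 1 to 5 in blue, dko 6 to 9 in orange), with a symbol for each treatment. Arsb on wt replicates 4 and 5 lies at 9.99 to 10.53, above every other array.

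The transcript levels of the regulators themselves did not pass the test in any comparison. Tfeb, a basic helix-loop-helix factor that switches on lysosomal genes, was near background, with detection on 11 of 36 arrays. Its levels were 4.54 ± 0.16 in untreated and 4.68 ± 0.37 in crystal-loaded wt cells (SD, n = 5), and 4.45 ± 0.06 and 4.57 ± 0.07 in dko cells (n = 4). With CD alone and with both agents it read 4.85 ± 0.45 and 4.76 ± 0.64 in wt and 4.59 ± 0.22 and 4.54 ± 0.29 in dko cells. With crystals in wt it differed by 0.14 (SE 0.21, adjusted p = 0.805). Tfe3, its relative, was detected on every array, at 8.17, 8.65, 8.37, 8.23 and 8.57 on untreated and 7.80, 8.38, 8.75, 8.30 and 8.08 on loaded wt arrays. These overlapped over most of their range, with a difference of -0.13 (SE 0.18, adjusted p = 0.748). Tfe3 read 8.37 ± 0.38 with CD and 8.52 ± 0.36 with both agents in wt, and 8.17 ± 0.33, 8.26 ± 0.06, 8.41 ± 0.14 and 8.50 ± 0.14 in the 4 dko groups. Where these factors lie in the cell was not measured. Lamp1 ran from 13.21 ± 0.12 in wt cells with CD to 13.66 ± 0.12 in dko cells with crystals, and the other 6 groups lay between.

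Other lysosomal genes were described from 6 further lists, which hold none of the 34 genes. In wt cells with crystals and no CD, where the all-gene median was -0.01 and 6.89% of all genes rose and 7.11% fell, 11 of 15 measured proton pump subunits rose and none fell (median 0.44), led by Atp6v1h at 1.15 (SE 0.14, adjusted p = 6.32e-07). Of 27 transporters and other membrane proteins 8 rose and 2 fell (median 0.35), with Slc15a3, a carrier of small peptides, at 1.14 (SE 0.17, adjusted p = 1.81e-05). Of 25 genes of delivery to the lysosome 8 rose and 1 fell (median 0.20), led by the sorting adaptor Gga2 at 1.18 (SE 0.19, adjusted p = 5.74e-05). Among 25 genes of nutrient sensing and TFEB control 5 rose and 1 fell (median 0.00). They included the small GTPases that recruit mTORC1, Rragd at 2.14 (SE 0.24, adjusted p = 1.72e-07) and Rragc at 0.84 (SE 0.09, adjusted p = 2.07e-07), and the folliculin partner Fnip2 at 1.38 (SE 0.20, adjusted p = 7.56e-06). Of 18 other hydrolases and activators 4 rose and 1 fell (median 0.18), with the hyaluronidase Hyal1 at 2.49 (SE 0.48, adjusted p = 0.000455). Of 13 cathepsins and legumain 1 rose, Ctsz at 1.18 (SE 0.18, adjusted p = 2.67e-05), and 1 fell, Ctsc at -0.91 (SE 0.22, adjusted p = 0.00456) (median -0.08). In dko cells, where 0.416% of all genes were called, 1 of the 15 proton pump genes, Atp6v1c1 at 0.80 (SE 0.17, adjusted p = 0.0136), and 1 of the 25 sensing genes, Rragd at 1.23 (SE 0.27, adjusted p = 0.0205), rose.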

How the data were processed

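RNA of 36 macrophage cultures was measured on Illumina arrays. The authors deposited an intensity per probe and array with a detection p-value, and a matrix of log2 of that intensity (largest difference 5.57e-05). Neither was normalized as far as the values show, with array medians of 83.5 to 128. Per the submitters' processing notes Partek was used, with no role stated. The sources used here give no scanner settings.

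From the 45281 probes (1 unnamed line was left out), limma 3.58.1 in R 4.3.3 corrected background from the detection p-values, added 16, took log2 and quantile-normalized (neqc). Probes with a detection p under 0.05 on at least 4 arrays were kept (21126), and a gene was its brightest such probe. A mean per group was fitted over all arrays (lmFit, eBayes, 28 residual and 3.94 prior degrees of freedom), with 15 two-sided comparisons, each adjusted over 14421 genes (Benjamini-Hochberg, calls under 0.05). The number of arrays limits the precision. Between 15342 and 17892 probes were detected per array. Replicate arrays correlated at 0.964 to 0.995, and none appeared to be present more than once. The fit was tested on simulated data. The members and lists were chosen with earlier results of these data known.

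Every called gene was to be named, the 14 with the lowest adjusted p with each array's value and the rest by change, SE and adjusted p, besides Tfeb, Tfe3, Lamp1 and up to 3 genes of each other list. Alternatives were other scalings, filters and probe choices, the replicate number or slide as a block, parts of the slides, and leaving out each replicate number. Testing each probe, the slides of wt alone and Xist as a covariate were added after the data had been seen.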

Additional observations from a re-analysis of the deposited data

Results flagged for a closer look

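Single arrays lay far from the rest of their group in 10 of 168 groups of arrays of the called genes, Tfeb and Tfe3, by Dixon's ratio of the gap to the range, which chance exceeds in about 1 of 20 groups. Values are normalized log2 intensity beside the range of the other arrays. Gla on dko untreated replicate 7 read 5.51 against 4.39 to 4.53, and on dko crystals replicate 6 6.18 against 5.02 to 5.20. Galns read 8.03 against 7.37 to 7.56 on wt crystals replicate 5, 7.73 against 6.83 to 7.09 on wt CD replicate 5, and 7.45 against 7.15 to 7.20 on dko crystals and CD replicate 6. In wt cells with crystals and CD, Neu1 on replicate 3 read 10.75 against 11.01 to 11.10, Naglu on replicate 4 8.89 against 9.88 to 10.09, and Tfeb on replicate 3 5.87 against 4.30 to 4.67. Ctns on wt CD replicate 3 read 8.53 against 9.02 to 9.14, and Lamp2 on dko CD replicate 8 12.18 against 12.40 to 12.45.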

How the results depend on the processing

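Over all arrays 28 changes of members were called, and 510 values under the alternatives were compared with them: 325 kept direction and call, 180 kept direction without the call, and 5 reversed. For crystals in wt without CD 10 members were called, with median scaling 2, with the unnormalized series matrix values 0 and on the slides with both genotypes 0. All-gene calls there went from 2019 to 498, 129 and 77. For crystals in wt with CD 9 were called, then 1, 0 and 0, and 2 with the slide as a block, with all-gene calls of 1095, 202, 79, 99 and 442. For genotype over the 4 treatments 9 were called, 4 with median scaling and 5 on the slides with both genotypes, with all-gene calls of 2775, 1927 and 558, and 8554 in the series matrix. Where no member was called, the slides with both genotypes gave 1 for crystals in dko without CD (Mcoln1), 1 for CD in unloaded dko (Arsb) and 1 for dko against wt untreated (Arsb), which the slide as a block gave as well. Within dko these slides hold the same arrays, with the spread estimated without wt replicates 1 to 3. CD in loaded dko gave 1 (Sgsh) with the slide as a block, the replicate block or Xist as a covariate. Leaving out each replicate number gave 3 to 10, 1 to 9 and 4 to 11 members in these 3 comparisons, 0 to 1 for CD in loaded dko and 0 in the other 11. The reversed genotype values were those of Hexa (-0.0544), Smpd1 (-0.0374), Neu1 (-0.0879) and Lamp1 (-0.0951) in the series matrix, and Lamp1 with median scaling (-0.0012), before the shift of all genes is taken off. The cause was not tested. Same-numbered wt arrays deviated together (mean correlation 0.48, -0.04 to 0.72 over 30 pairs, against -0.12 for other numbers, with 16 of 20 arrays closest to their own number). Among dko arrays, where each number held arrays of high and of low Xist, the mean was -0.08 (0 of 16). The numbers thus hint at pairing in wt, but not every pair shows it and the labels do not state it. The replicate block gave 10, 11 and 1 members for crystals in wt without CD, crystals in wt with CD and CD in loaded dko, with 17%, 10.5% and 3.01% of all genes, and 0 in the other 10 comparisons it allowed. Without CD it called Cd63 and lost Fuca1, and with CD it added Galns and Neu1. It could not be fitted to dko against wt, which share no number. Dim probes limit Gla, Fuca1 and Tfeb. The Fuca1 probe under an older clone name, detected on 35 arrays, differed by -0.47 between genotypes over the 4 treatments (SE 0.14, adjusted p = 0.0217 by limma).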

Other observations

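Arsb separated the wt arrays by replicate number in every treatment. In untreated cells replicates 1 to 5 read 9.10, 9.28, 9.13, 10.27 and 10.44, with crystals 8.57, 8.61, 8.92, 10.46 and 10.53, with CD 9.11, 9.26, 9.44, 10.14 and 9.99 and with both 8.75, 9.10, 8.84, 10.46 and 10.19. Replicates 4 and 5 also differed from 1 to 3 in slide and in Xist signal, and which of these goes with Arsb cannot be told apart in wt.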
